A study of Caenorhabditis elegans with 4 samples.

Results

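The regions described here are the BLMP-1 peaks of Caenorhabditis elegans embryos that were found in both ChIP-seq replicates. Each is a peak of the list deposited for the whole series that shared at least 1 bp with a peak of replicate 1 and at least 1 bp with a peak of replicate 2. There were 1623 such peaks, called shared peaks below, among 17858 peaks of the series list. The other 16235 peaks lacked one replicate or both, and are called the other peaks.

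BLMP-1 binds DNA through zinc fingers and regulates transcription, and is the worm relative of mammalian Blimp-1. In worms it is known for its part in developmental timing in the epidermis and gonad, where its protein level is limited by the DRE-1 ubiquitin ligase pathway. C. elegans autosomes have gene-rich, rarely recombining centres and repeat-rich arms, whereas the X chromosome is more even along its length.

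ChIP-seq sequences the DNA that is precipitated with a protein, here through a GFP tag with anti-GFP antibodies. All samples came from embryos of strain OP109, a hermaphrodite strain grown at 20 °C. It is mutant for unc-119 (ed3) on chromosome III and carries the transgene wgIs109, which joins blmp-1::TY1::EGFP::FLAG to a working unc-119 (+). There were 2 ChIP samples, replicates 1 and 2, and 2 input samples of total genomic DNA from the same strain, each input being 10% of an extract fixed with 2% formaldehyde. The transgene was built by recombineering, was introduced by biolistic transformation and was not outcrossed. The number of inserted copies is not given, and no strain without the transgene was analysed here.

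Only peak lists were analysed, 1 per ChIP replicate and 1 for the whole series, and none for the inputs, so signal at a peak was not set against total DNA. The replicate lists held 11261 and 3009 peaks. Read depth is unknown. No tests are given, because choosing members by overlap with replicate peaks is tied to how wide, how strong and where they are. Values are descriptions of these lists with 95% intervals from the exact Clopper-Pearson method. The intervals cover counting error only and are too narrow where nearby peaks are not independent. Whether the replicates came from separate cultures is not stated.

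Shared peaks were few and took up a large part of the sequence under peaks. They made up 9.09% of the series list (exact interval 8.67% to 9.52%) and 26.4% of the bases that its peaks cover. That came to 901484 bp, or 0.899% of the genome span, against 2514094 bp and 2.51% for the other peaks. Requiring replicate 1 alone would have admitted 8055 peaks and replicate 2 alone 2682, so both requirements narrowed the list. In the other direction the shared peaks drew on 1691 peaks of replicate 1, which is 15.0% of that list, and on 1656 peaks of replicate 2, which is 55.0%.

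Membership followed the strength of a peak in the series list, as given by the authors' score, which is smaller for stronger peaks. The median score was 9.38e-14 for the shared peaks and 7.66e-05 for the other peaks. By rank, 96 of the first 100 series peaks were shared, as were 149 of the next 150 and 243 of the 250 after those. The share was 83.6% between ranks 501 and 1000 (80.1% to 86.7%), 56.4% between 1001 and 1500 (51.9% to 60.8%) and 32.4% between 1501 and 2000 (28.3% to 36.7%). Almost all members therefore stood in the upper part of the list. The first 1000 ranks held 906 of them (55.8%) and the first 3000 held 1515 (93.3%). Only 26 members ranked after 5000 and 3 after 10000, the last at rank 11825. Whether the series list was called from the same reads as the replicate lists is not stated, and these scores were not tested against membership.

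**Figure D1:**
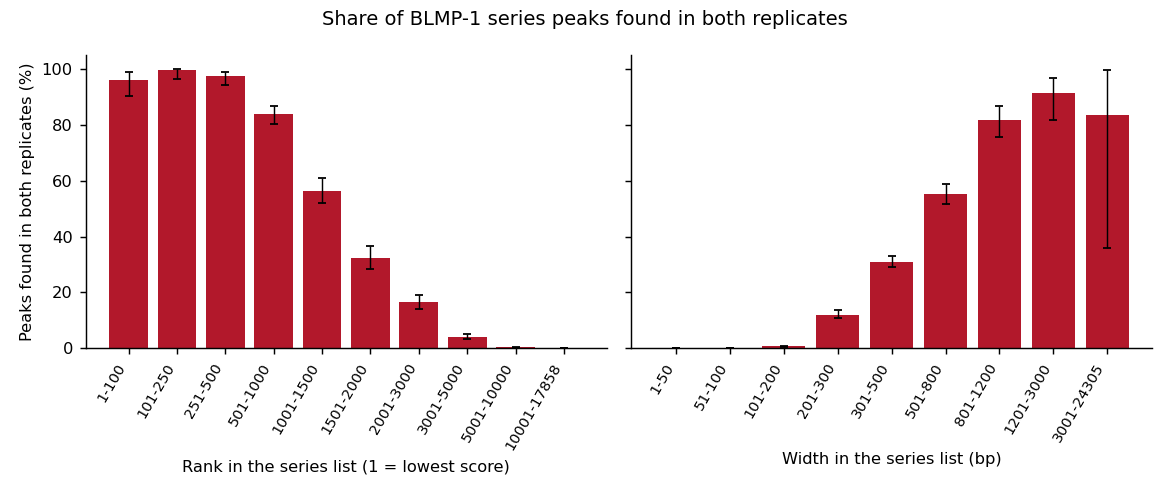
Percent of series peaks found in both replicates (vertical axis), by rank in the series list (left, rank 1 has the lowest score) and by width in bp (right), with exact 95% intervals as bars. The share is 96.0% in the first 100 ranks and 0.46% between ranks 5001 and 10000, and it is 0.791% for peaks of 101 to 200 bp and 81.6% for peaks of 801 to 1200 bp.

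The strongest shared peaks fell into regions of several kb and peaks of about 1 kb. A score of 0 was listed for 3 of them, at chromosome II 9897273 to 9903210 (5938 bp wide), IV 11694533 to 11700856 (6324 bp wide) and V 6350830 to 6354622 (3793 bp wide). The fourth strongest, at I 10390514 to 10414818, was also the widest at 24305 bp, with a score of 1.34e-291. Whether this region or the 3 before it hold sequence that the transgene also carries was not tested. The number of transgene copies is not given. All coordinates are on WormBase WS220. The wide regions differed in how the replicates filled them. Replicate 1 covered 100% of the II and IV regions, and replicate 2 covered 4.16% and 2.04% of them with 1 peak each. On V both replicates split the region into 3 peaks, covering 86.4% in replicate 1 and 78.7% in replicate 2, and on I each replicate had 1 peak over 99.7% and 99.8% of it.

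Narrower members followed in the order of score. They lay at IV 10089676 to 10090800 (1125 bp, score 4.8e-223), II 8750638 to 8751780 (1143 bp, 1.23e-182) and II 8748699 to 8750417 (1719 bp, 3.71e-180). Then came X 15274592 to 15275809 (1218 bp, 8.22e-170), V 6105149 to 6106291 (1143 bp, 1.04e-158) and, as number 10, X 15309901 to 15310636 (736 bp, 5.73e-132). The neighbours on chromosome II shared their strongest replicate 2 peak, which held rank 4 there, so these 2 members are not fully separate observations in replicate 2. The one at II 8748699 overlapped 2 replicate 2 peaks. Its longest overlap was with a peak 804 bp wide, while that of II 8750638 was with one of 1524 bp. Chromosome III had no member among the 10 strongest; its strongest was III 568382 to 569738 (1357 bp, rank 16, score 1.55e-113). Only 1 of the 5 widest members was not among the 10 strongest, III 13778142 to 13781236 (3095 bp, rank 173), which replicate 1 covered fully and replicate 2 by 51.3%.

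Most members overlapped exactly 1 peak of each replicate. That was so for 1534 of the 1623, while 67 held 2 or more replicate 1 peaks, 37 held 2 or more replicate 2 peaks, 15 of these held 2 or more of both, and none held more than 3 of either. Replicate 1 peaks covered 78.4% of a member at the median (quartiles 54.9% and 92.7%) and replicate 2 peaks 74.8% (58.4% and 88.6%). The midpoints of the main peaks of replicates 1 and 2, those with the longest overlap, lay 74.5 bp apart at the median (32.5 and 151 bp). In 598 members (36.8%) they were within 50 bp and in 1351 within 200 bp. Peaks of both replicates covered at least 50% of the width in 1105 members (68.1%).

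The series peak was usually wider than the replicate peaks under it. Its median width of 444 bp compared with 341 bp for the main peak of replicate 1 and 341 bp for that of replicate 2, and it exceeded both in 1111 members. Neither replicate was the wider one throughout, as replicate 1 had the wider main peak in 800 members and replicate 2 in 818. The 1 bp of overlap that the rule asks for was far exceeded in most members. The smaller of the 2 overlaps was 266 bp at the median, and it was under 10 bp in 11 members and under 50 bp in 60. In 98 members (6.04%, interval 4.93% to 7.31%) the replicate peaks overlapped the series peak at different places and did not touch each other. None of those was among the first 500 ranks and 53 ranked after 2000.

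**Figure D2:**
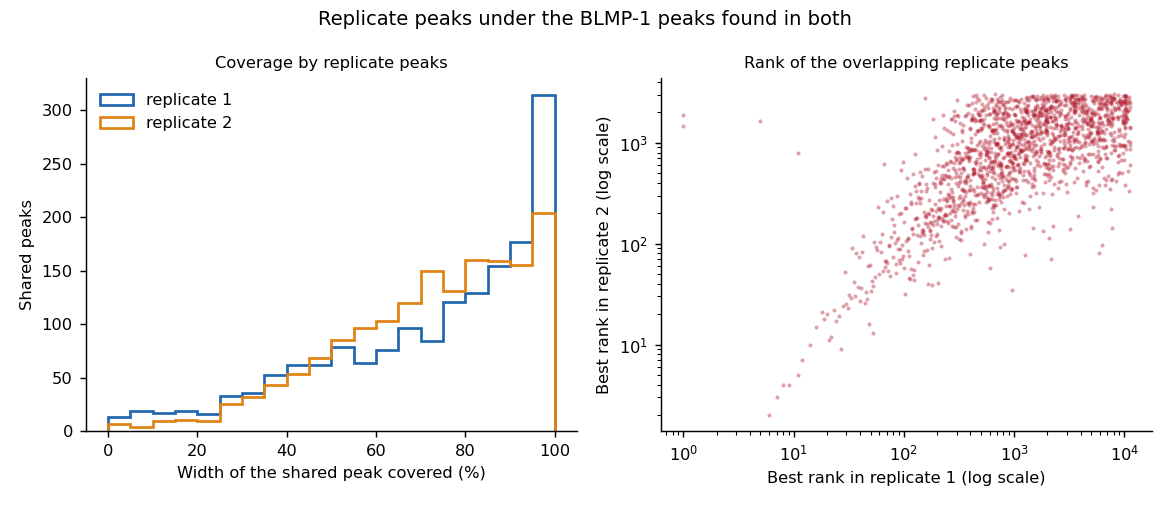
Left, number of shared peaks (vertical axis) by the percent of their width that replicate 1 (blue) or replicate 2 (orange) peaks cover. Right, best rank of the overlapping replicate 2 peaks against that of replicate 1 for each of the 1623 shared peaks, both on log scales, with the median at 940 for replicate 2 and 1121 for replicate 1.

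Ranks of the members went together more closely between the series list and each replicate than between the replicates. Over the 1623 members Spearman's rho between the ranks in replicates 1 and 2 was 0.603. It was 0.893 between the series list and replicate 1 and 0.755 between the series list and replicate 2. No p is given because the members were chosen from these lists, and whether the lists share reads is not stated. Among members, 93 had a best rank of 100 or under in replicate 1, 98 had one in replicate 2 and 67 had one in both. Midpoints of the replicate peaks were 85.3 bp apart at the median in the first 100 ranks, 61.8 bp between ranks 101 and 500, 68.0 bp up to 1000, 79.5 bp up to 2000 and 104 bp after that. Median widths in these classes were 1056, 641, 466.5, 371.5 and 281 bp. The class with the smallest median width had the largest distance, and the class with the largest width had the next largest. Coverage by replicate 1 was 94.7% at the median in the first 100 ranks and 53.2% after rank 2000, while coverage by replicate 2 was 74.6% and 75.2%.

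Members just inside the rule were narrow overlaps with replicate 1 or 2. The smallest overlap was 2 bp, in members starting at II 6776438, V 6225614 and X 10686478, each with replicate 1. The next were 3 bp at II 9352863 and 4 bp at II 10164958, with replicate 2. Just outside, the peak at II 11042980 directly adjoined a replicate 2 peak with 0 bp between them, and those at IV 6977214, IV 16213517 and IV 8783160 missed one by 20, 42 and 49 bp. The peak at III 5228144 missed a replicate 1 peak by 65 bp. Few peaks sat this close to the rule: of 7491 series peaks that overlapped 1 replicate alone, 10 had a peak of the other within 100 bp and 362 within 500 bp.

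Few strong series peaks lay outside the shared set. The first 500 ranks held 12, of which 11 lacked replicate 2 and 1 lacked replicate 1. The strongest were X 15724964 to 15738314 (13351 bp, score 0), X 7776540 to 7777495 (rank 14), II 11027545 to 11028253 (rank 24) and I 7900148 to 7901185 (rank 33). The nearest replicate 2 peak to these 4 was 6555 bp away or farther, whereas the closest of the 12, at IV 3867175, missed a replicate 2 peak by 559 bp. These peaks were named after their values were seen.

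Shared peaks were wider than the other peaks. They had a median width of 444 bp (interval 430 to 457 bp) with quartiles of 333 and 650 bp, against 134 bp (132 to 137 bp) with quartiles of 57 and 199 bp for the other peaks. The narrowest member was 99 bp wide, while 22.9% of the other peaks were 50 bp or narrower. Of the 3714 series peaks up to 50 bp none was shared (exact upper bound 0.0993%). The share was 12.1% between 201 and 300 bp, 30.9% between 301 and 500 bp, 55.2% between 501 and 800 bp and 91.2% between 1201 and 3000 bp. A wider peak overlaps others more easily, so the rule itself favours wide peaks. Within the shared set, too, stronger peaks were wider, with a rho of -0.697 between width and rank over the 1623 members.

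At equal rank the difference in width was smaller or turned round. Between ranks 501 and 1000 the 418 shared peaks had a median width of 466.5 bp and the 82 others one of 554 bp. Between 1001 and 1500 the medians were 402 bp in shared and 456.5 bp in other peaks, and between 1501 and 2000 they were 329.5 and 348.5 bp. The order turned further down the list, with 263.5 bp in shared and 199 bp in other peaks between ranks 3001 and 5000. Over the 3000 strongest series peaks together, a setting added after seeing the data, shared peaks still had the larger median, at 463 bp (446 to 481 bp) against 338 bp (330 to 347 bp).

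**Figure D3:**
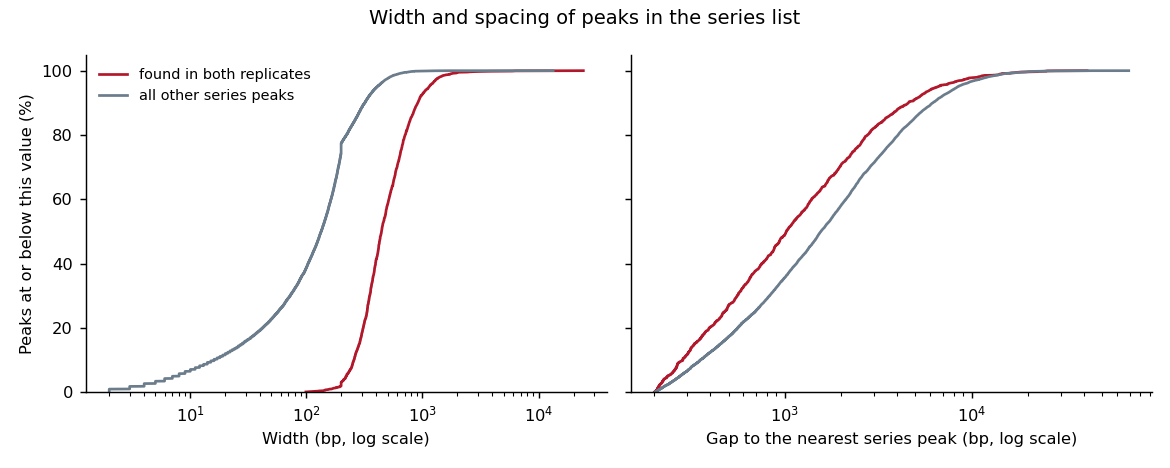
Cumulative percent of peaks (vertical axis) by width (left) and by gap to the nearest series peak (right), both in bp on log scales, for shared peaks (red) and all other series peaks (grey). Shared peaks lie to the right in width, with a median of 444 bp against 134 bp, and to the left in gap, with a median of 1020 bp against 1561 bp.

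All 6 chromosomes held shared peaks, at densities from 9.69 to 22.9 per Mb. Chromosome III was the densest with 315 members (22.9 per Mb), followed by X with 334 (18.9 per Mb) and II with 282 (18.5 per Mb). Chromosome IV had 276 (15.8 per Mb), V had 270 (12.9 per Mb) and I had 146 (9.69 per Mb). Relative to all other chromosomes together, the density of shared peaks was 1.51 on III (interval 1.33 to 1.71), 1.21 on X (1.07 to 1.36), 0.757 on V (0.662 to 0.864) and 0.559 on I (0.468 to 0.663). The other peaks gave ratios of 1.16 on III, 0.969 on X, 1.05 on V and 0.605 on I. Both sets were thus sparse on chromosome I, whereas on V shared peaks were sparser and other peaks slightly denser than elsewhere. On IV the ratio was 0.969 (0.848 to 1.10) in shared and 1.14 (1.10 to 1.19) in other peaks.

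Put as a share of its own series peaks, membership ranged from 7.12% on V (interval 6.32% to 7.99%) to 11.0% on III (9.92% to 12.3%). It was 10.7% on X (9.61% to 11.8%), 9.61% on II, 8.51% on I and 8.03% on IV, beside 9.09% over the whole list. Among strong peaks the chromosomes differed as well. Of the series peaks ranked in the first 3000, the shared part was 58.5% on X (54.2% to 62.8%), 52.2% on III, 51.1% on II, 48.7% on IV, 46.4% on V (42.2% to 50.7%) and 43.2% on I (37.9% to 48.8%). Of those in the first 1000, it was 94.9% on X (90.9% to 97.5%), 92.3% on IV and 91.5% on III, against 89.5% on II, 87.7% on V and 85.4% on I (77.9% to 91.1%). Members on I had the largest median width, 527.5 bp, compared with 488 bp on X and 409 to 435.5 bp on the other chromosomes.

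Along the autosomes, shared peaks were concentrated in the middle, where each chromosome was divided into 3 equal parts. The 5 autosomes together held 373 members in the left, 549 in the middle and 367 in the right parts, which is 13.6, 20.0 and 13.3 per Mb. The density in the middle was 1.48 times that in the 2 outer parts (interval 1.33 to 1.66), beside 1.07 times (1.03 to 1.11) for the other peaks. On the X chromosome shared peaks were spread evenly, with 118, 112 and 104 members in the left, middle and right parts and a ratio of 1.01 (0.797 to 1.27).

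Chromosomes II and V carried most of this pattern. On V the middle part held 145 members, with 64 to its left and 61 to its right, a ratio of 2.32 (1.81 to 2.97), while the other peaks were flat, with 1185 in the middle, 1151 in the left and 1185 in the right part and a ratio of 1.01 (0.945 to 1.09). On II the middle held 132 members against 62 and 88, a ratio of 1.76 (1.38 to 2.24), beside 1.14 (1.05 to 1.23) for the other peaks. Ratios for shared peaks on I, III and IV were 1.24, 1.09 and 1.23, with intervals that all included 1. The other peaks had 1.22 on I, 1.15 on III and 0.947 on IV, so on I and III the shared set was not denser in the middle than the other peaks by more than its interval. Without II and V, a setting added after seeing the data, the ratio of the autosomes was 1.17, against 1.07 for the other peaks.

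**Figure D4:**
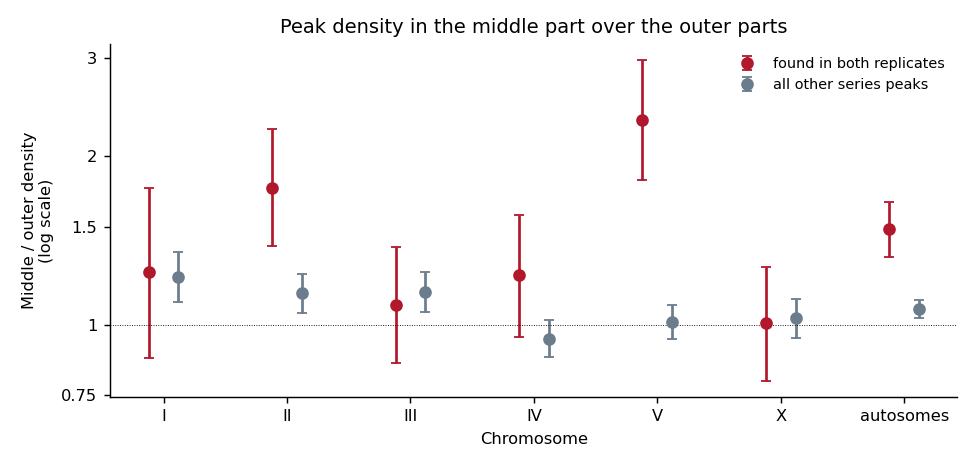
Ratio of peak density in the middle part of a chromosome to that in its outer parts (vertical axis, log scale) for shared peaks (red) and all other series peaks (grey) on each chromosome and over the 5 autosomes, with exact 95% intervals. Shared peaks reach 2.32 on V and 1.76 on II, while the other peaks lie between 0.947 and 1.22.

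Among strong peaks the chromosomes differed in this comparison. Among the 3000 strongest series peaks the middle to outer ratio was 1.49 for shared and 1.29 for other peaks over the autosomes, and 2.36 (1.83 to 3.05) against 1.40 (1.10 to 1.77) on V. Shared peaks also had the larger ratio on II, at 1.74 against 1.04, and on IV, at 1.19 against 0.971. The order was the opposite on I, at 1.27 in shared and 1.57 in other peaks, and on III, at 1.11 and 1.61. The full lists of single replicates gave smaller ratios on V, at 1.19 in replicate 1 and 1.66 in replicate 2, and 1.08 in the series list. Membership by replicate 1 alone gave 1.15 over the autosomes, and by replicate 2 alone 1.35. A division into 10 equal parts showed the same shape more finely. On V, parts 6 and 7 from the left reached 1.89 and 1.70 times the chromosome's mean density of shared peaks and part 9 stood at 0.222 times, whereas the other peaks on V stayed between 0.849 and 1.12 times their mean. On II, parts 2 and 3 stood at 0.390 and 0.461 times the mean for shared peaks.

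**Figure D5:**
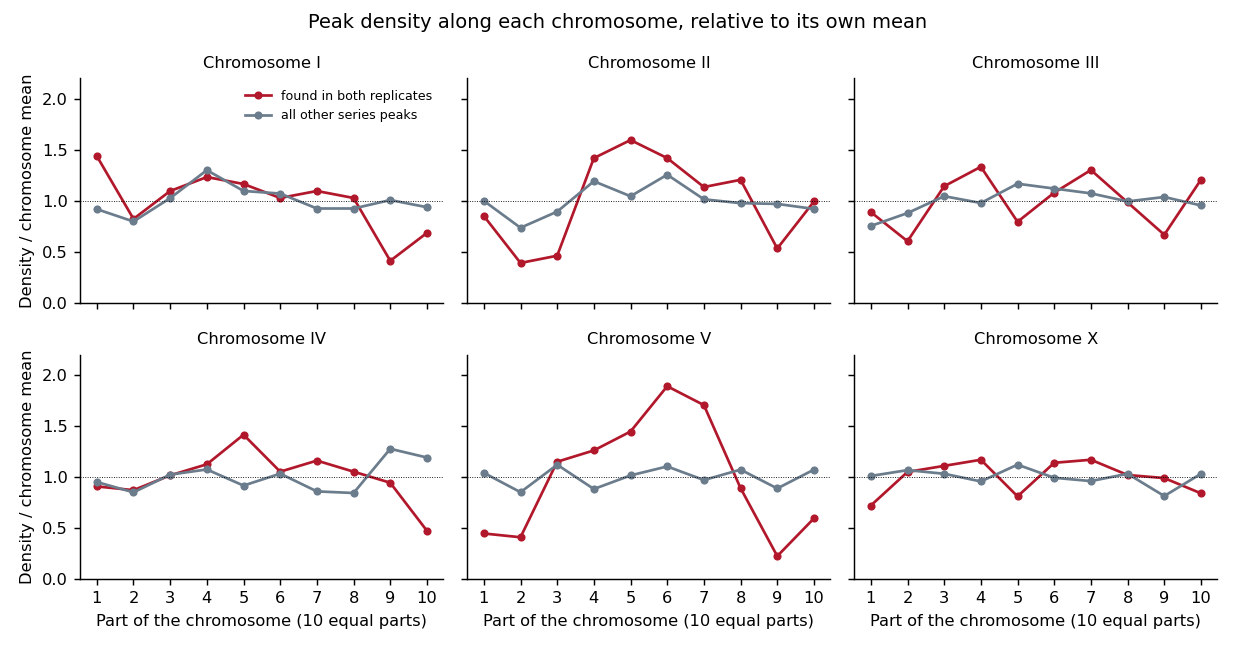
Density of shared peaks (red) and of all other series peaks (grey) in 10 equal parts of each chromosome, divided by the mean density of that set on the chromosome, so that 1 (dotted line) is an even spread. On V the shared peaks range from 0.222 to 1.89 and the other peaks from 0.849 to 1.12, and on X the shared peaks stay between 0.719 and 1.17.

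Every full bin of 1 Mb, counted from the left end of each chromosome, held shared peaks. The 97 bins held from 2 to 33 members with a median of 16. The fullest were III 8000001 to 9000000 with 33, III 4000001 to 5000000 with 32 and X 5000001 to 6000000 with 31, and the emptiest were V 2000001 to 3000000 and V 17000001 to 18000000 with 2 each. The emptiest bins still held 132 and 129 of the other peaks, which is fewer than the 163 of the median bin. Numbers of shared and other peaks went together only weakly over the bins (rho 0.321 over 97 bins, which share chromosomes and libraries).

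At 100 kb the spread was uneven. Of 998 full windows 290 (29.1%) held no member, the median window held 1, and 12 was the most. The fullest windows were IV 3800001 to 3900000 with 12 members and 29 other peaks, X 11000001 to 11100000 with 12 and 14, and II 6800001 to 6900000 with 11 and 25. The longest stretches between 2 members lay in outer parts of autosomes. They were II 1321037 to 2341015 (1019979 bp), V 17159680 to 17951092 (791413 bp) and I 13395509 to 14066839 (671331 bp). Series peaks were present in them all, with 119, 102 and 67 of the other peaks, as were 59, 48 and 33 peaks of replicate 1 and 8, 9 and 3 of replicate 2, none of which came together in one series peak.

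Shared peaks had close neighbours in the series list more often than the other peaks when gaps were measured from edge to edge. Another series peak lay within 1000 bp of 795 members (49.0%, interval 46.5% to 51.4%), against 35.7% of the other peaks (34.9% to 36.4%). The median gap was 1020 bp for shared and 1561 bp for other peaks. Among the 3000 strongest series peaks, a setting added after seeing the data, the share was 48.6% (46.1% to 51.2%) in shared peaks. It was 40.5% in the other peaks of that set. The share over the whole list also depended on how distance was measured, and no comparison at equal width was made. Measured from midpoint to midpoint, 29.8% of shared peaks (27.5% to 32.1%) and 29.6% of other peaks had a neighbour within 1000 bp, although the median distance was still 1451 bp for shared and 1743 bp for other peaks. Within 10 kb of the midpoint there were on average 4.87 series peaks around a member and 4.13 around another peak, with a median of 4 for both.

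The closest neighbours of members were mostly peaks outside the shared set. Of the 795 members with a neighbour within 1000 bp, 223 had another member within that distance, and in 203 of these no other peak lay between. Along the chromosome, the series peak that followed a member was itself shared in 239 of 1622 cases (14.7%, interval 13.0% to 16.6%), against 8.52% (8.10% to 8.96%) after another peak. Next to the 9.09% of the whole list, members therefore followed each other more often than other peaks were followed by members. No 2 members were closer than 204 bp, and no 2 series peaks closer than 201 bp.

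Distances between members themselves varied widely. The nearest other member lay 11304 bp away at the median, with quartiles of 2491 and 33617 bp and a largest value of 436877 bp. On III the median was 7239 bp and on II 8840 bp, followed by V with 11025.5 bp, IV with 11522 bp, X with 13330 bp and I with 24943.5 bp. The order differs from that of density. X was next to III in density and had the longest distance after I.

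Chained by gaps of at most 5000 bp, 599 members (36.9%, interval 34.6% to 39.3%) fell into 246 clusters of 2 or more. There were 182 pairs, 43 groups of 3 and 21 larger clusters, and 1024 members stood alone. The median span of a cluster was 3748.5 bp and the longest 27282 bp, and 123 of them held other series peaks between the members. Clustered members had a median width of 492 bp and single ones 419 bp. The clustered part was largest on III, at 43.5% of its members (37.9% to 49.2%), and smallest on I, at 24.0% (17.3% to 31.7%), and between 34.7% and 40.4% on the others. Over the autosomes it was 41.7% in the middle (37.6% to 46.0%), 37.5% in the left (32.6% to 42.7%) and 31.1% in the right parts (26.4% to 36.1%). The density of members was likewise highest on III, lowest on I and highest in the autosome middle. No comparison of clustering at equal density was made. X, next to III in density, had 34.7% of its members in clusters (29.6% to 40.1%). That was near the 37.0% of IV (31.2% to 42.9%) and the 35.2% of V (29.5% to 41.2%), with intervals that overlapped.

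The 2 largest clusters held 11 members each. One spanned IV 3848189 to 3875205, 27017 bp, with 12 other series peaks, 18 peaks of replicate 1 and 17 of replicate 2. Its members were 247 to 1945 bp wide and ranked from 207 to 5993, so weak and strong peaks lay side by side, the strongest at 3852370 to 3854314. Replicate 1 covered 3.05% to 62.7% of the width of these members, and 10.2% of the strongest. Over all members its median coverage was 78.4%. The other spanned II 6821057 to 6848338, 27282 bp, with 9 other series peaks, 19 peaks of replicate 1 and 15 of replicate 2. Its members were 262 to 1544 bp wide and ranked from 70 to 2444, the strongest at 6828801 to 6829651.

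The third cluster was the shortest of these 3 and the only one of them without other series peaks inside. It held 7 members within 10768 bp at X 11056868 to 11067635, with 7 peaks in each replicate. Members were 337 to 814 bp wide. The strongest, at 11064438 to 11065226, ranked 21 in the series list with a score of 3.61e-96, and the weakest, at 11066524 to 11066926, ranked 1046. All 7 thus stood at ranks where most peaks were shared. No gene is named beside any of these positions, because no annotation of WS220 was used here.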

How the data were processed

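Analysis began from peak lists that the authors deposited in GFF3 form for replicate 1, replicate 2 and the series. Their source column names PeakSeq and, per the file headers, their coordinates are on WormBase WS220. The PeakSeq version, the aligner, filters, threshold, use of inputs and any pooling: not given in the sources used here. The deposited score, read here as a q-value, ran from 0 to under 0.001. Numbering left out 428 peaks of the series list and 148 of replicate 1, which were not analysed here.

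Samples were grouped by their titles. Overlap of at least 1 bp was computed in Python 3.11.15 with pandas 2.3.3, numpy 2.4.6 and scipy 1.17.1, drawn with matplotlib 3.10.9, checked with bedtools 2.31.1 and tested on simulated data. Chromosome length was the last peak end in any list, 100.2 Mb in all. A peak belongs to the part, bin or window of its midpoint, ranks are by score, and gaps count the bases between edges. Intervals of medians are from order statistics. Members, lists and settings were chosen with earlier results of these data known. The alternatives tried are given in the closing section. Regions were named by a rule: the 10 strongest and 5 widest members, the 5 nearest the rule on either side, and the 3 largest clusters, fullest 100-kb windows and longest stretches. Genes were not named and no sequence is shown, as no WS220 genome or annotation was used here.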

Additional observations from a re-analysis of the deposited data

How the results depend on the processing

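Of 73 alternative values for 8 results, 42 stayed within the interval of the main value and 31 moved outside it; 67 were planned and 6 were added after seeing the data. The share of series peaks found in both replicates was 7.92% with midpoints within 200 bp, 18.1% in the stronger 50% of the list, 6.66% with replicate 1 reduced to the length of replicate 2, and 15.0% to 45.1% by single replicates. By single replicates the relative density of chromosome I was 0.433 to 0.521, the middle to outer ratio 1.15 to 1.35, neighbours within 1000 bp 39.6% to 46.4%, clustered members 42.2% to 63.3% and median width 196 to 346 bp, all with more peaks admitted. The middle to outer ratio was 1.67 when the middle was taken as 50% of the chromosome and 1.17 without II and V. Neighbours were 34.3% in the stronger 50%, 27.0% within 500 bp, 91.1% within 5000 bp and 29.8% by midpoints. Clustered members were 32.4% with midpoints within 200 bp, 31.9% with equally long replicate lists, and 22.1% and 47.8% with gaps of 2000 and 10000 bp. Median width was 420 bp with midpoints within 200 bp, 495 bp with equally long lists and 463 bp in the 3000 strongest. Coverage by replicate 1 was 80.4% and 85.8% under midpoints and equal lists and 89.8% without replicate 2; coverage by replicate 2 was 77.4% under midpoints and 84.2% without replicate 1. The stronger 50% of the list kept 1619 of the 1623 members, so their share rose as the list was shortened. Moves with another gap limit follow from the limit itself. The cause of the other moves was not tested. The chromosome I ratio was under 1 in all 8 alternatives tried, but so was that of the other peaks (0.599 to 0.824). With equally long replicate lists the ratio of shared peaks, 0.628, was above the 0.599 of the other peaks. It was below that of the other peaks in the remaining alternatives. The middle to outer ratio was above that of the other peaks in all 11 alternatives tried for it. No paired analysis was possible because the results come from no test and peaks of the inputs were not part of this work. Since read depth is unknown, its bearing on replicate 2, and so on the number of members, was not tested.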

Other observations

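Nearly every pair of overlapping replicate peaks met in a shared peak. Replicates 1 and 2 had 1572 pairs of peaks that overlap, and in 1571 of them both peaks also overlapped members. The remaining pair, at chromosome I 15063982 to 15067642 in replicate 1 (rank 4) and 15063999 to 15067642 in replicate 2 (rank 1), had no series peak.

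A few members were strong in one replicate and weak in the other. In 3 members the best rank was 100 or under in replicate 1 and after 1000 in replicate 2. These were the regions at II 9897273, IV 11694533 and IV 10089676, with replicate 2 ranks of 1886, 1455 and 1631. The opposite was seen in 4 members. They started at IV 3852370 (rank 80 in replicate 2 and 5923 in replicate 1), X 1453800 (78 and 1251), II 8420531 (97 and 6301) and IV 11027042 (70 and 2139). At II 8420531 replicate 2 covered 100% of the member and replicate 1 covered 4.30%. The first of the 4 lies in the 11-member cluster of chromosome IV.

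One width was far more frequent than any other. Exactly 199 bp was the width of 19 shared peaks (1.17%) and 524 other peaks (3.23%), and of 543 peaks of replicate 1 and 217 of replicate 2. The next most frequent width in the series list, 2 bp, was that of 152 peaks, none of them shared. All positions and widths here were picked after their values were seen.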
